A study of Mus musculus with 4 samples.

Results

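The contractile genes of smooth muscle and of myofibroblasts were examined in mouse embryonic fibroblasts (MEFs) with and without Ip6k1, which encodes an inositol hexakisphosphate kinase. The group held 10 genes, Acta2, Actg2, Tagln, Cnn1, Myh11, Tpm1, Myl9, Des, Lmod1 and Smtn, of 27827 gene names on the array, and its members were the 17 probes, of 41174 in all, that carry these names and are not control probes. The study asked how gene expression differs in cells that lack IP6K1, and compared 2 Ip6k1+/+ lines with 2 Ip6k1-/- lines. The lines came from E14 embryos of a single pregnancy in a cross of heterozygous parents, were all immortalised with SV40 large T antigen, and were growing exponentially without further treatment when they were collected with trypsin. Each line is 1 embryo, and its RNA was labelled with Cy3 from an oligo-dT primer and hybridized to 1 Agilent array, with all 4 arrays on 1 slide. Genotype and other differences between these embryos cannot be told apart with so few lines, and p-values measure the spread between these 4 lines only. Because each array measured a whole culture, fewer contractile cells and less RNA per cell cannot be told apart.

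Fibroblasts that take on a contractile state are called myofibroblasts, and alpha smooth muscle actin in stress fibres is their best known mark. Their contractile genes, which smooth muscle cells also use, are switched on largely by serum response factor (SRF) together with coactivators of the myocardin family, which in fibroblasts respond to the state of the actin cytoskeleton and to TGF-beta. The proteins fall into actins (Acta2, Actg2), proteins that bind or decorate the actin filament (Tagln, Cnn1, Smtn, Tpm1), a nucleator of actin filaments (Lmod1), the myosin motor and its regulatory light chain (Myh11, Myl9), and the intermediate filament protein desmin (Des).

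Of the 17 probes, 14 were bright enough to test, being well above background in both lines of a genotype, and they covered 8 of the 10 genes. Levels are given as log2 of the processed signal minus the 75th percentile of the array, so that 0 marks the 75th percentile, and are not compared between probes. A probe saturated on an array has only a lower limit there. This held on all 4 arrays for 3 tested probes, and on 1 array for the Myl9 probe, which left 10 unsaturated probes of 7 genes. Overall brightness was similar, with a 75th percentile signal of 610 and 747 for the Ip6k1+/+ arrays against 612 and 678 for the Ip6k1-/- arrays, and 52.0% to 55.5% of probes were well above background. The targeted gene followed the labels, as Ip6k1 probe A_51_P213766 was at 0.35 and 0.39 in Ip6k1+/+ MEFs and well above background in neither Ip6k1-/- line, where it was at least 34.0-fold lower. The limma adjusted p was 0.0355 for the measured difference of -7.21, and 0.142 for -5.09, with dim values raised to the floor used for that limit. A probe nearer the 3′ end, A_51_P103718, stayed well above background and read 2.46 and 2.61 against -1.98 and -1.23. Where a genotype is too dim, the fold is a limit, reckoned from the faintest signal on its arrays that still counts as well above background.

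The probes are 60 bases long and report only the stretch of transcript they match. Shown here are the brightest unsaturated probe of Acta2, Tagln, Tpm1 and Smtn, which stood for these genes in the medians below, and the only probe of Myh11. The other unsaturated probes of Acta2 and Tpm1, which carry the gaps between genotypes seen for these genes, are given by position only. They are written 5′ to 3′ in the sense of the transcript, with no base marked in capitals.
Acta2 A_51_P450957: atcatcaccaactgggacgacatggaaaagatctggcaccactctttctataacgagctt
Tagln A_52_P517683: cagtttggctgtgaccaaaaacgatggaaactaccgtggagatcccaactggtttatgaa
Tpm1 A_52_P532910: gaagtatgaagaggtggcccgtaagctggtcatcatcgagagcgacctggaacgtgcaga
Smtn A_51_P479786: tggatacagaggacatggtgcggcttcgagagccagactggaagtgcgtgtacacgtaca
Myh11 A_51_P362429: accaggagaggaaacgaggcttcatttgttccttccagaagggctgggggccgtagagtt
In mm9, the build named in the file headers, they lie on the minus strand at chr19:34322995-34326249, chr9:45738916-45738975, chr9:66880625-66881695, chr11:3420834-3420893 and chr16:14195223-14198147. The Acta2, Tpm1 and Myh11 coordinates span 3255, 1071 and 2925 bases, more than the probe itself, so these probes cross at least 1 splice junction. The 5 probes start at bases 298, 478, 560, 2838 and 5924 of the transcripts that the array files name. Actin genes have closely similar coding sequences, and binding of 1 actin transcript to the probe of another was not tested.

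No contractile gene passed the array-wide test of the genotypes, and Lmod1 alone, 4.67-fold lower in Ip6k1-/- MEFs, passed the 2-fold cutoff. Of the 14 tested probes, 0 were called by limma at an adjusted p of 0.05 and a 2-fold difference. Over all 21572 probes tested 0.0139% were called (3 probes, among them A_51_P213766 and A_52_P413035 of the deleted Ip6k1). Of the 14, 1 had an unadjusted p below 0.05, beside 3.34% of all probes. The count of calls among them was also 0 under every other test, scaling and filter that was run. By the 2-fold cutoff, which asks for a mean difference of at least 2-fold and for each Ip6k1-/- line to lie at least 0.9 from the Ip6k1+/+ mean on the log2 scale, 1 probe was lower in Ip6k1-/- MEFs, the single Lmod1 probe, and 0 were higher. Among all probes tested 1.87% were lower and 1.06% higher by this cutoff. Without Ip6k1+/+ replicate 2 the difference was -2.63 for Lmod1, -1.29 for Cnn1, -1.20 for Acta2 A_52_P239556 and -1.28 for Tpm1 A_51_P325173. Without Ip6k1+/+ replicate 1 the same probes were at -1.82, 1.14, -0.37 and -0.15. The lines of the genotypes did not overlap for 5 of the 14 probes, all 5 lower in Ip6k1-/- MEFs and 0 higher, while 12.6% and 18.8% of all probes were apart in these directions. The 5 probes belong to 4 genes, Acta2, Actg2, Tpm1 and Lmod1, and probes of 1 gene are not independent.

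**Figure D1:**
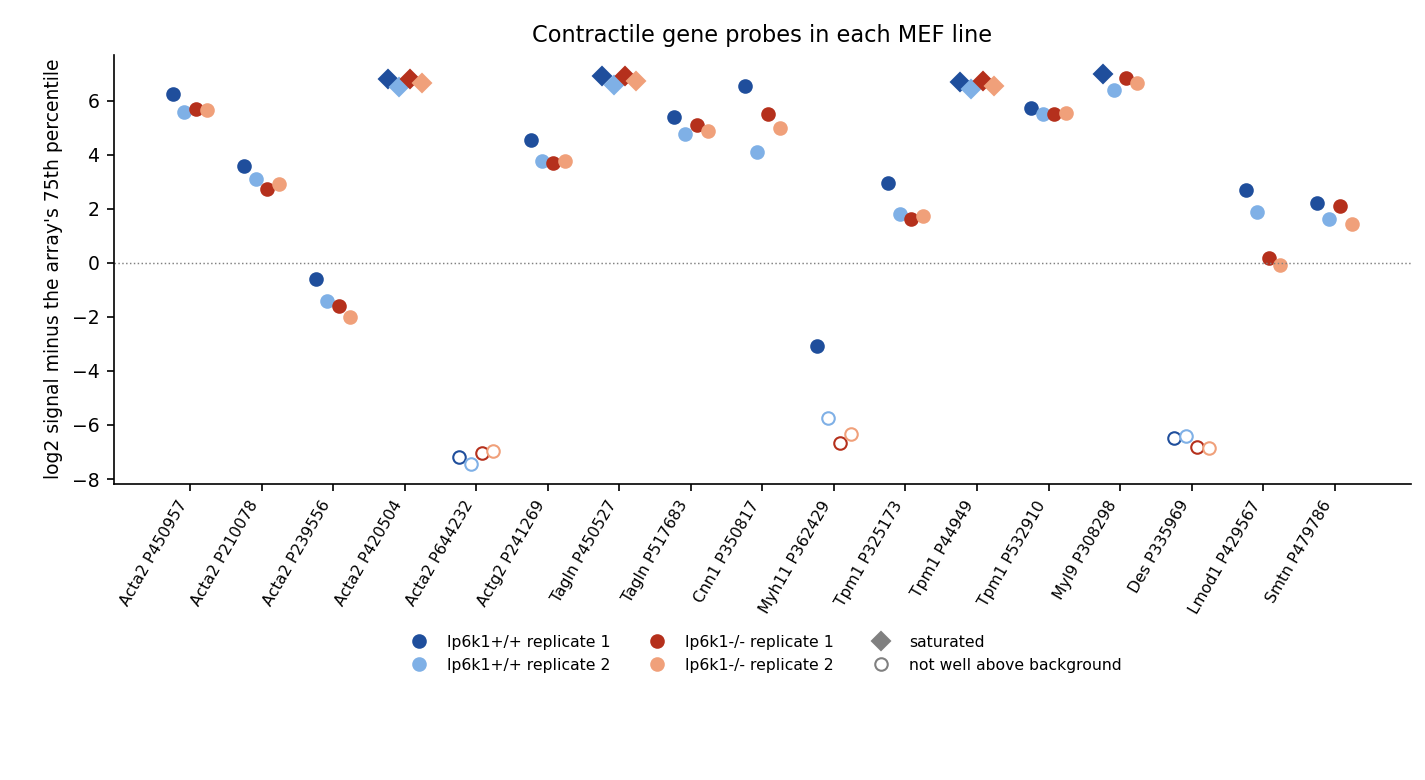
Level of each of the 17 contractile gene probes in the 4 MEF lines, as log2 signal minus the 75th percentile of the array. Each point is 1 line on 1 array, diamonds are saturated and open circles are not well above background, and the Lmod1 probe is the one where both Ip6k1-/- lines, at 0.19 and -0.07, sit far below both Ip6k1+/+ lines, at 2.69 and 1.88.

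Lmod1, which encodes leiomodin, a nucleator of actin filaments in smooth muscle cells, was the member with the largest difference. Its probe A_51_P429567, at chr1:137263311-137263369 on the plus strand of mm9 and from base 2610 of the named transcript, read 2.69 and 1.88 in Ip6k1+/+ MEFs, with the Ip6k1-/- lines at 0.19 and -0.07. The genotypes did not overlap, and the gap between them exceeded the distance between lines of the same genotype. The mean was 2.28 ± 0.57 (SD, n = 2 lines) in Ip6k1+/+ MEFs and 0.06 ± 0.19 in Ip6k1-/- MEFs, a difference of -2.22 (standard error 0.34, 95% interval -3.13 to -1.32), or 4.67-fold lower. The unadjusted p was 0.00163 and the adjusted p was 0.795 (limma, Benjamini-Hochberg), so the difference did not pass the threshold. The difference lay between -2.63 and -1.82 under all alternatives run, and its lowest adjusted p was 0.195. Of the related leiomodins, Lmod2 was not well above background in the 4 lines, and Lmod3, well above it in 3, had a genotype difference of -0.55 (limma adjusted p = 0.993).

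The actins came next. Acta2, the gene of alpha smooth muscle actin, has 5 probes on chromosome 19, of which 3 were neither saturated nor too dim. Probe A_51_P450957 read 6.23 and 5.58 in Ip6k1+/+ MEFs, with the Ip6k1-/- lines at 5.68 and 5.67. The Ip6k1-/- lines thus nearly coincided and lay between the Ip6k1+/+ lines, close to the lower one. The difference was -0.23 (standard error 0.26, 95% interval -0.92 to 0.46, limma adjusted p = 0.993), an interval that leaves room for a change of almost 2-fold downward. Probe A_52_P210078, at 34315697 to 34315756 and from base 1604 of the same transcript, read 3.59 and 3.11 against 2.75 and 2.92. Here the genotypes were apart, by -0.52 (standard error 0.24, 95% interval -1.15 to 0.12, limma adjusted p = 0.993).

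The remaining Acta2 probes add less. Probe A_52_P239556, designed on a cDNA clone and placed at 34315196 to 34315254, read -0.59 and -1.43 against -1.60 and -1.99, which again put both Ip6k1-/- lines below both Ip6k1+/+ lines (difference -0.78, standard error 0.40, limma adjusted p = 0.993). Probe A_52_P420504, from base 1241 of the transcript, was saturated on all 4 arrays at 6.50 to 6.80, so that it shows a strong signal in every line and no difference can be read from it. Probe A_52_P644232, designed on another clone and lying at 34327946 to 34328005, was well above background in 0 of the 4 lines. The 3 unsaturated Acta2 probes thus had lower means in Ip6k1-/- MEFs, by 0.23 to 0.78 on the log2 scale, and each 95% interval included 0.

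Actg2, which encodes the gamma actin of enteric smooth muscle, was well above background in all 4 lines. Its probe A_51_P241269 read 4.52 and 3.77 in Ip6k1+/+ MEFs, with the Ip6k1-/- lines at 3.69 and 3.76. The genotypes did not overlap only because Ip6k1-/- replicate 2 fell 0.01 below Ip6k1+/+ replicate 2, and 3 of the 4 lines lay within 0.1 of each other. The difference was -0.42 (standard error 0.30, 95% interval -1.20 to 0.36, limma adjusted p = 0.993).

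Of the actin-binding members, Cnn1 varied most between lines. It encodes calponin 1, which binds actin and slows the myosin ATPase, and its probe A_51_P350817 lies at chr9:21913058-21913117 on the plus strand. The level was 6.53 in Ip6k1+/+ replicate 1 and 4.10 in Ip6k1+/+ replicate 2, a gap of 2.43, with the Ip6k1-/- lines at 5.51 and 4.97 between them. The standard deviation was 1.72 in Ip6k1+/+ MEFs and 0.38 in Ip6k1-/- MEFs (n = 2 lines each), and the genotype difference of -0.08 had a 95% interval of -2.24 to 2.08 (limma adjusted p = 0.995). The interval allows a change of more than 4-fold in either direction.

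Tagln, encoding transgelin (SM22-alpha), an actin-crosslinking protein, was saturated on all 4 arrays with probe A_51_P450527. The other probe, A_52_P517683, read 5.38 and 4.77 in Ip6k1+/+ MEFs, with the Ip6k1-/- lines at 5.09 and 4.86. The Ip6k1-/- lines lay between the Ip6k1+/+ lines, and the difference was -0.10 (standard error 0.27, 95% interval -0.80 to 0.60, limma adjusted p = 0.993). Smtn encodes smoothelin, a stress fibre protein of contractile smooth muscle, and read 2.20 and 1.62 against 2.11 and 1.45. Its lines interleaved, and the difference was -0.13 (standard error 0.34, 95% interval -1.03 to 0.76, limma adjusted p = 0.993).

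Tpm1 encodes tropomyosin 1, which lies along the actin filament and is made in many splice forms in muscle and other cells. Its 3 probes read different stretches of the gene on chromosome 9. Probe A_52_P532910 read 5.71 and 5.50 in Ip6k1+/+ MEFs, with the Ip6k1-/- lines at 5.52 and 5.55 between them, and the difference was -0.07 (standard error 0.18, 95% interval -0.53 to 0.39, limma adjusted p = 0.993). This was the narrowest interval of any unsaturated contractile probe. Probe A_51_P325173, designed on a cDNA clone and placed at 66875959 to 66877514 across a splice junction, read 2.95 and 1.81 against 1.60 and 1.73. There the genotypes were apart, by -0.72 (standard error 0.42, 95% interval -1.80 to 0.37, limma adjusted p = 0.993), with Ip6k1+/+ replicate 1 alone more than 1 above the other lines. Probe A_52_P44949 was saturated on all 4 arrays. Whether the 2 unsaturated Tpm1 probes differ from each other in their response was not tested.

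**Figure D2:**
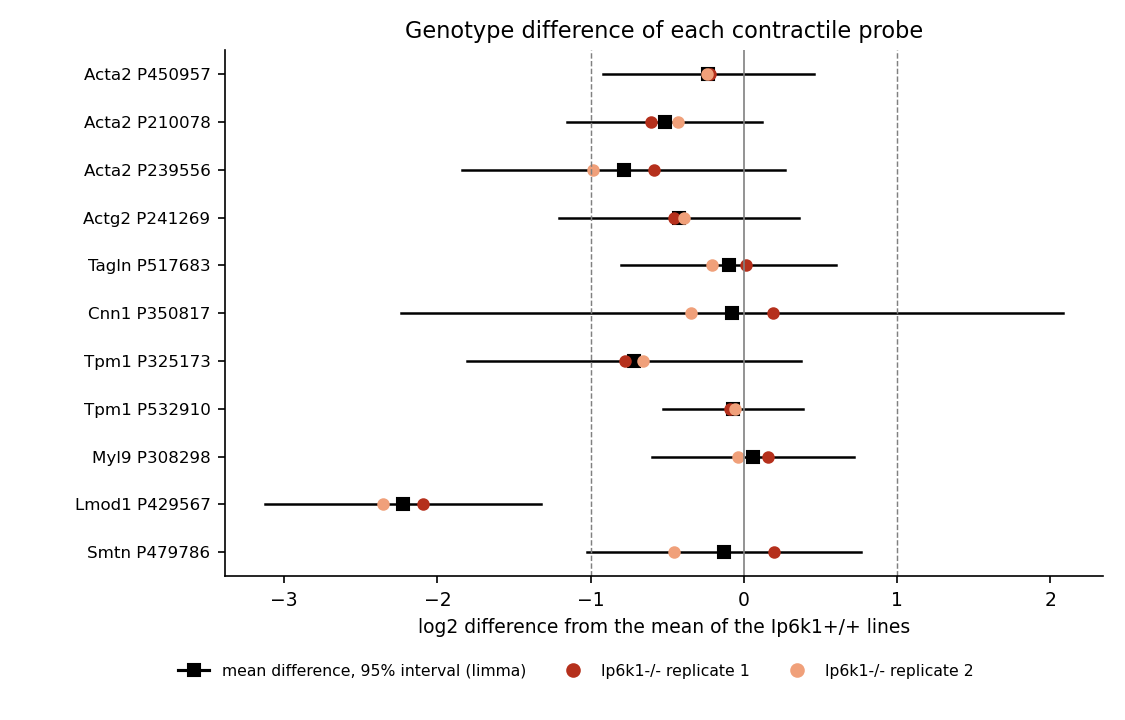
Genotype difference of the 11 contractile probes that were tested and not saturated on all arrays, in log2 units from the mean of the Ip6k1+/+ lines. Squares are means of Ip6k1-/- MEFs with the 95% interval of limma, circles are the single Ip6k1-/- lines, dashed lines mark 2-fold, and Lmod1 at -2.22 is the only probe whose interval lies wholly below 0.

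Myosin was represented by its smooth muscle heavy chain and a regulatory light chain. Myl9, whose product switches the motor on when phosphorylated, was read by probe A_51_P308298 at 6.98 and 6.40 in Ip6k1+/+ MEFs and at 6.85 and 6.65 in Ip6k1-/- MEFs. Ip6k1+/+ replicate 1 was saturated and its level is a lower limit, so the true difference may be lower than the measured 0.06 (95% interval -0.60 to 0.72, limma adjusted p = 0.993). Myh11, the heavy chain that defines differentiated smooth muscle, was measured in 1 line only. It read -3.06 in Ip6k1+/+ replicate 1, while Ip6k1+/+ replicate 2 at -5.73 and the Ip6k1-/- lines at -6.68 and -6.31 were not well above background. Myh11 did not enter the test, and no fold between the genotypes is given, since the level of Ip6k1+/+ replicate 2 was not measured.

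Des, which encodes desmin, the intermediate filament protein of muscle, gave no signal well above background. Its probe at chr1:75363404-75363629, averaged over 10 spots, lay between -6.85 and -6.42 in the 4 lines. These lines thus showed strong signals for Acta2, Tagln, Tpm1 and Myl9, while Des and, in 3 of the 4 lines, Myh11 were not well above background.

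The 10 unsaturated probes also shared a pattern across single lines. Ip6k1+/+ replicate 1 was the highest of the 4 lines for 10 of the 10, whereas it was the highest for 26.9% of all unsaturated probes tested, while Ip6k1+/+ replicate 2 was for 20.5%, Ip6k1-/- replicate 1 for 18% and Ip6k1-/- replicate 2 for 34.6%. The gap between the Ip6k1+/+ lines was larger than the genotype difference for 8 of the 10 probes, the exceptions being Acta2 A_52_P210078 and Lmod1. It ranged from 0.21 at Tpm1 A_52_P532910 to 2.43 at Cnn1. The share of all probes with the larger gap was not counted, and probes of 1 gene are not independent. A gap between 2 single lines also varies more than a difference of 2-line means. No trait of the contractile genes is therefore read from the 8 of 10. With the brightest unsaturated probe of each of the 7 genes, Ip6k1+/+ replicate 1 exceeded replicate 2 by a median of 0.65, beside 0.02 over the 14194 genes with such a probe. The Ip6k1-/- lines differed by a median of 0.22, beside -0.08 over all genes. By the brightest probe of each gene, saturated or not, the 8 tested genes had a median genotype difference of -0.01, beside 0.04 over all 14334 genes. Lower in Ip6k1-/- MEFs were 4 of the 8, beside 6455 of the 14334. The others were Acta2, Tagln and Tpm1, each by a probe saturated on all 4 arrays, and Myl9, saturated on 1. No difference can be read from a probe saturated on every array, so neither this count nor the median of -0.01 shows a lack of difference. By the brightest unsaturated probe, a rule chosen after seeing the data, the median over 7 genes was -0.13, beside 0.04 over all genes. This rule leaves out the saturated probes and Myl9, whose measured difference was 0.06. Under it 7 of the 7 were lower, beside 6450 of 14194 over all genes. For 5 of these 7 the direction turned when a single line was left out. Without Ip6k1+/+ replicate 1, the difference of Acta2 A_51_P450957 became 0.09, that of Tagln 0.21, that of Cnn1 1.14, that of Smtn 0.16 and that of Tpm1 A_52_P532910 0.04. Without Ip6k1-/- replicate 2, the difference of Tagln became 0.01, that of Cnn1 0.19 and that of Smtn 0.20.

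**Figure D3:**
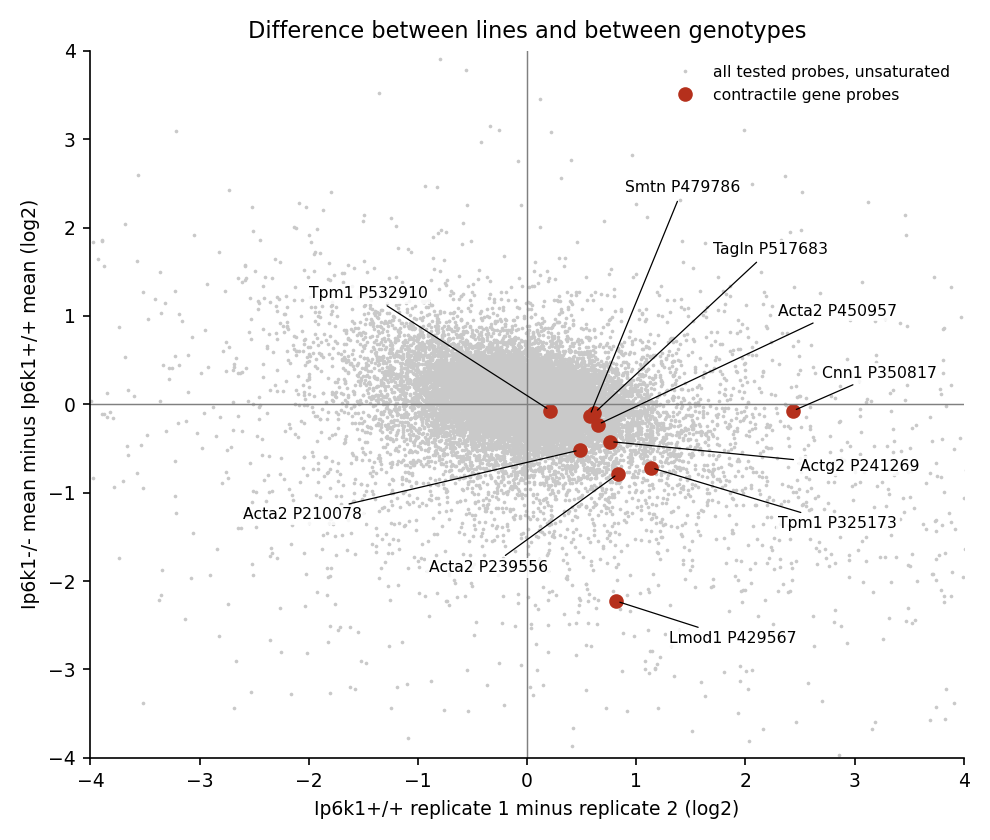
Difference between the Ip6k1+/+ lines (x axis) against the difference between genotypes (y axis), both in log2 units, for all tested probes saturated on no array (grey) and the 10 contractile probes among them (red). The axes leave out 126 of 21316 probes, and all 10 contractile probes lie to the right of 0 and below 0, with Cnn1 farthest right at 2.43 and Lmod1 lowest at -2.22.

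A list of 15 regulators, named for SRF and the myocardin family, also held Notch-induced repressors that belong to neither. Of the 15, 12 were tested. In this list and the 4 that follow 0 genes were called by limma, beside 0.00698% of all genes by the brightest probe, and here 1, Heyl, had an unadjusted p below 0.05. By the brightest probe of each gene, 2 were lower by the 2-fold cutoff, beside 2.09% of all genes, and 0 were higher, beside 1.07%. The genotypes were apart for 4 genes lower in Ip6k1-/- MEFs, beside 13.2% of all genes, and for 3 higher, beside 18.1%. The genes past the cutoff, Heyl and Hey1, encode such Notch-induced repressors, so these counts do not describe SRF or the myocardin family. Heyl read -2.80 and -3.20 in Ip6k1+/+ MEFs and was too dim without Ip6k1 to be well above background, so that its level was at least 3.28-fold higher with Ip6k1. Its limma adjusted p of 0.468 is for the measured values and not for this limit. Hey1 read 2.99 and 1.04 against 0.61 and -2.84, which is -3.13 between the means (standard error 1.31, limma adjusted p = 0.993) with a wide spread within both genotypes. The most positive differences were 0.53 for Hey2 and 0.48 for Elk3, an ETS factor that partners SRF. Outside the rule for named genes, and given for their role, Srf itself differed by -0.19 (standard error 0.18) and Mkl1, a myocardin-related coactivator, by 0.03 (standard error 0.46). Myocd, the coactivator of smooth and heart muscle, had no probe well above background.

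Other actin, tropomyosin and calponin family genes had 15 of 19 members tested, with 0 past the 2-fold cutoff. Their most negative differences were -0.75 for Tmod2, which caps filament ends, and -0.64 for Acta1, the skeletal muscle actin, and the most positive were 0.74 for Actb and 0.43 for Tpm3. The genotypes were apart and lower in Ip6k1-/- MEFs for 6 of the 15 and higher for 2, beside 13.2% and 18.1% of all genes. Of the genes for myosin and its control, 19 were tested and 1 was lower by the 2-fold cutoff, Myh14, a nonmuscle myosin heavy chain, at -1.52 (standard error 0.66, limma adjusted p = 0.993). Prkg1, the cGMP-dependent kinase that relaxes smooth muscle, differed by -1.60, but its Ip6k1-/- lines stood at -5.37 and -1.70. The most positive values were 0.26 for the kinase gene Rock1 and 0.15 for Myl6b. In this list the genotypes were apart for 4 genes lower and 1 higher, beside the same 13.2% and 18.1% of all genes.

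Genes of dense plaques and actin crosslinking, the sites where contractile filaments are anchored, had 22 of 23 members tested. Itga8, an integrin subunit of smooth muscle and mesenchyme, was the 1 member past the 2-fold cutoff, at 1.1 and -0.33 in Ip6k1+/+ MEFs, with the Ip6k1-/- lines at -1.28 and -1.48. The genotypes were apart, by -1.77 (standard error 0.53, unadjusted p = 0.0221, limma adjusted p = 0.993). Ldb3 differed by -1.48, with its Ip6k1-/- lines at -3.10 and -6.94, and the most positive differences were 0.35 for Actn1 and 0.29 for Itgb1. The genotypes were apart for 5 genes lower and 3 higher, beside 13.2% and 18.1% of all genes. Of 19 TGF-beta signalling genes and targets, 19 were tested and 0 passed the 2-fold cutoff. Tgfbi, a secreted TGF-beta target, differed by -2.37 and Postn, encoding periostin, by -1.58, but 1 Ip6k1-/- line of each lay within 0.9 of the Ip6k1+/+ mean. Tgfb3 and Eng had the most positive differences, 0.73 and 0.45. Among the TGF-beta genes the genotypes were apart for 4 lower and 0 higher, beside the same shares of all genes. The median difference by the brightest probe was -0.00029, -0.12, 0.05, -0.17 and -0.12 in the 5 lists in the order given, beside -0.01 for the contractile genes. By the brightest unsaturated probe it was -0.03, -0.15, -0.19, -0.22 and -0.11, beside -0.13 for the contractile genes, so that the sign of the myosin list turned with the probe rule.

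**Figure D4:**
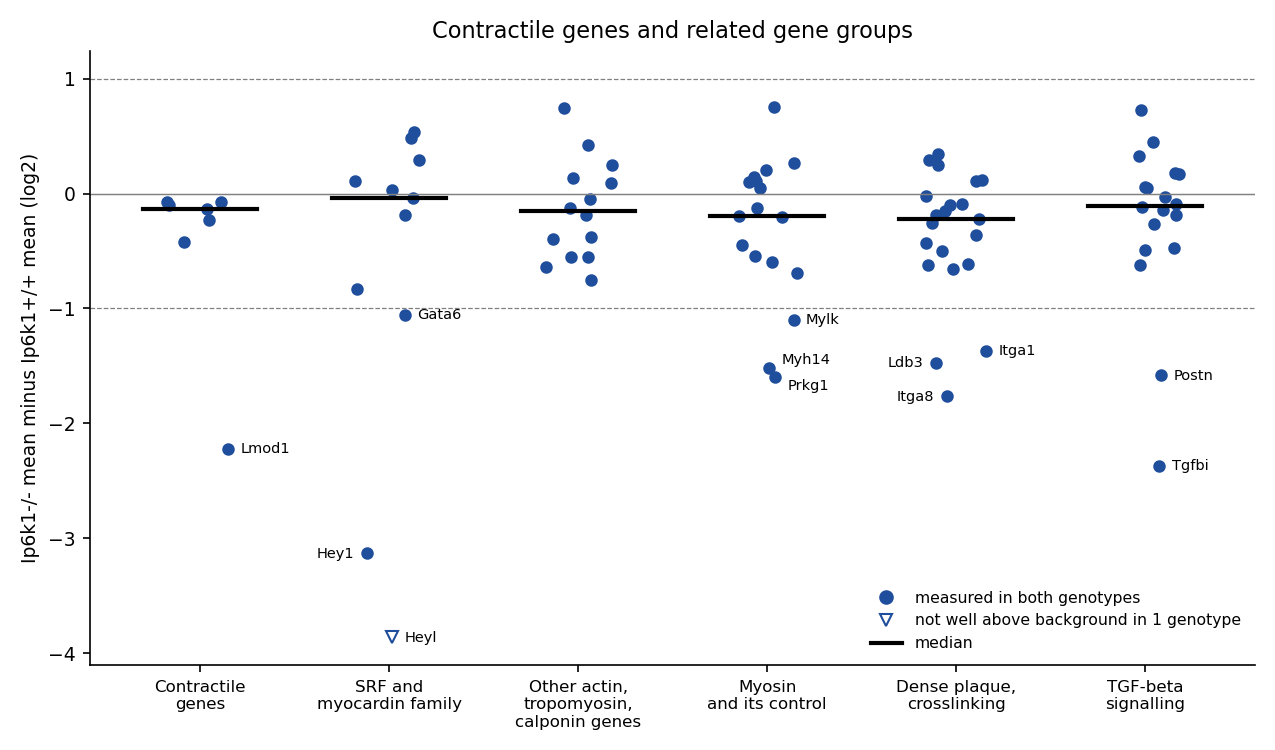
Genotype difference (log2, y axis) of each gene by its brightest unsaturated probe, for the contractile genes and 5 related gene lists (x axis), with bars at the medians and dashed lines at 2-fold. The open triangle is a gene not well above background in 1 genotype, and the contractile genes other than Lmod1 lie between -0.42 and -0.07.

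Markers of other cell types were read on the same arrays. All 12 fibroblast marker genes, such as Col1a2 and Vim, were well above background in 3 lines and 11 in Ip6k1-/- replicate 2. Their summed signal, on a linear scale relative to the 75th percentile, was 719 to 769 in Ip6k1+/+ MEFs and 599 to 684 in Ip6k1-/- MEFs, with the brightest probe of 5 of the 12 saturated, and Dcn and Col6a1 were lower by the 2-fold cutoff. Of 24 striated muscle markers, 12 were not well above background on any array, Myod1 and Myog among them, and the sum was 3.11 to 3.76 against 4.03 to 5.32, with Myh7 higher by the 2-fold cutoff. Of 8 markers of mature smooth muscle, 5 were tested, Kcnmb1 and Casq2 were not well above background on any array, and the sum was 6.38 to 8.84 against 4.07 to 6.99. In that list Itga8, given above, was the 1 gene lower by the 2-fold cutoff, beside 2.09% of all genes, and the 1 with an unadjusted p below 0.05. The genotypes were apart and lower in Ip6k1-/- MEFs for 2 of the 5, beside 13.2% of all genes. The median difference of the list was -0.55, beside 0.04 over all genes. Of 8 pericyte markers, 5 were tested, Rgs5 and Kcnj8 were not well above background on any array, Pdgfrb and Anpep were lower by the 2-fold cutoff, and the sum was 39.7 to 55.4 against 29.6 to 46.2. The genotypes were also apart and lower for 5 of the 12 fibroblast markers (median -0.38) and 2 of the 5 pericyte markers (median -0.40), beside the same 13.2%. An unadjusted limma p below 0.05 was found for 3 and 2 genes of these 2 lists, beside 3.34% of all probes. Low values were thus not particular to the smooth muscle markers. The fibroblast, smooth muscle and pericyte sums were highest in Ip6k1+/+ replicate 1. Gene by gene, this line was highest for 4 of 9 fibroblast, 3 of 5 smooth muscle and 1 of 5 pericyte markers. These counts, by the brightest unsaturated probe, stand beside 4125 of 14194 over all genes. The part of these markers in the contractile gene results was not tested. Of 8 endothelial markers 2 were tested and 5, Pecam1 and Cdh5 among them, were not well above background on any array, and the sum was 1.73 and 8.59 in the Ip6k1+/+ lines against 4.44 and 3.15. Of 8 epithelial markers 3 were tested and 3, Cdh1 among them, were not well above background on any array, and the sum was 4.54 and 4.47 against 4.25 and 6.70. Of 8 macrophage markers 1 was tested and 5, Ptprc among them, were not well above background on any array, and the sum was 0.32 and 0.49 against 0.45 and 0.35.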

How the data were processed

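Total RNA of 2 Ip6k1+/+ and 2 Ip6k1-/- MEF lines was measured on 4 single-colour Agilent arrays that share 1 slide and 1 scan. The spot intensity that the authors deposited is linear and already corrected for background by Feature Extraction (10.5.1.1 per the file headers, build mm9). Their deposited log2 values, shifted in GeneSpring, equalled those computed here up to a constant on each array (median deviation 0.0025). Neither file holds fold changes or p-values of the authors.

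Here, the processed signal was put on the log2 scale and shifted so that the 75th percentile over the 43379 non-control spots was 0 on every array. Spots with an outlier flag (96, 99, 133 and 115 in the order of the lines) were left out, saturated spots were kept, and spots of 1 probe were averaged. A probe counted as well above background or saturated where over 0.5 of its spots were. The 21572 probes (14334 gene names) that were well above background in both lines of a genotype were tested in limma 3.58.1 (R 4.3.3) by moderated linear models whose prior variance followed the mean level, and p-values were adjusted by Benjamini-Hochberg over all of them. The fit was also run on simulated arrays with independent noise, without the saturation of the real ones, and no result here rests on that run. A gene was represented by its brightest tested probe, and by its brightest unsaturated probe where stated. Names of genes follow the array files. No mm9 annotation was used here.

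Genes named are Ip6k1, all contractile probes, and the 2 largest rises and falls of each related list by the brightest probe. Of each marker list, the 2 brightest genes were to be named, and genes past the 2-fold cutoff or not above background were added after their values were seen. The members and lists were chosen with earlier results of these data known. Alternatives were median or quantile normalization, normexp (offset 50), the deposited log2 values, a floor on dim values, other filters, other tests, a replicate block, other probe rules and leaving out each line. Slide and scan gave no block because all 4 arrays share them. The number of arrays limits the precision. RT-qPCR and cell assays were not analysed here. The sequence of 1 probe is not reported here.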

Additional observations from a re-analysis of the deposited data

How the results depend on the processing

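Contractile genes called by limma numbered 0 under every alternative, as did calls in the related lists. By the 2-fold cutoff, no filter on dim probes gave 2 lower contractile genes (Lmod1 and Myh11). More of them passed this cutoff without Ip6k1+/+ replicate 2, where the share over all probes was not counted. The median difference over the contractile genes by the brightest probe, -0.01, ranged from -0.32 to 0.22 when each line was left out in turn. Single probes changed sign only when a line was left out, with ranges of -0.55 to 0.092 for Acta2 A_51_P450957, -0.41 to 0.21 for Tagln, -1.29 to 1.14 for Cnn1, -0.18 to 0.036 for Tpm1 A_52_P532910, -0.46 to 0.20 for Smtn and -0.23 to 0.35 for Myl9. Without Ip6k1-/- replicate 1 Myl9 was at -0.04, and without Ip6k1-/- replicate 2 Tagln was at 0.01, Cnn1 at 0.19 and Smtn at 0.20. The cause was not tested.

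The difference of Ip6k1 kept its direction and lost its call with normexp (-3.63, limma adjusted p = 0.124), quantile normalization (-7.36, 0.0755), a floor on dim values (-5.09, 0.142), no filter (-7.21, 0.243) and a Student's t-test of each probe (-7.21, Benjamini-Hochberg adjusted p = 0.75). The paper's methods name that test for comparing 2 groups and state no test for the arrays. Over the omissions of a line the difference of Ip6k1 was -7.26 to -7.17, and its call was lost in each of them too. In these fits the filter still used all 4 arrays and the lone line was assumed to vary like the others. With the replicate number as a block, Lmod1 was still at -2.22 (limma adjusted p = 0.195), and 3 probes were called over the whole array, as without the block. Differences between replicates 1 and 2 correlated at 0.48 across probes between the genotypes, but with 2 pairs the numbers were not taken to pair the lines. The brightest unsaturated probe was an alternative chosen after seeing the data. Saturation limits the reading of 3 of the 14 tested probes on every array, and low signal that of Myh11 and Des.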

Other observations

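Some genes outside the 10 differed by over 1 on the log2 scale between the Ip6k1+/+ lines, as Cnn1 did, and they were picked out after their values were seen. Tpm2, which encodes the beta tropomyosin of muscle, read 6.66 and 4.57 in Ip6k1+/+ MEFs against 6.16 and 4.98 in Ip6k1-/- MEFs with its brightest probe, so that its Ip6k1-/- lines also lay between the Ip6k1+/+ lines (difference -0.04, standard error 0.80, limma adjusted p = 0.998). Acta1, the skeletal muscle actin, read 3.27 and 1.92 against 2.26 and 1.65, so that an Ip6k1-/- line was lowest (difference -0.64). Ctgf, a matricellular gene induced by TGF-beta and by SRF, read 6.98 and 5.77 against 6.97 and 6.44 (difference 0.33, standard error 0.46, limma adjusted p = 0.993). Ip6k1+/+ replicate 1 read highest for all 3, though for Ctgf the order of the 2 brightest lines is unsure. Whole lists were also counted, by the brightest unsaturated probe. Ip6k1+/+ replicate 1 was the highest for 3 of 11 SRF and myocardin family regulators and 6 of 14 other actin, tropomyosin and calponin family genes. The same line was highest for 7 of 17 genes for myosin and its control, 10 of 21 dense plaque genes and 6 of 18 TGF-beta genes. Over all genes the count by this rule was 4125 of 14194.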
